A study of Mus musculus with 4 samples.

Results

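The genes described here encode ESCRT-III, the filament-forming machinery that pinches off and seals membranes, together with the proteins that bring it to damaged membrane and take it apart again. The set has 10 members, the subunit genes Chmp1a, Chmp2a, Chmp2b, Chmp3, Chmp4b and Chmp5, the calcium sensor Pdcd6, the adaptor Pdcd6ip, and the ATPase genes Vps4a and Vps4b. Members were found by gene symbol in the annotation of the array platform, which gave 21 of the 45037 probe sets that are not controls and 10 of 18193 singly named genes. Of the 21 probe sets, 18 were bright enough to be tested and 3 were not. No probe set that carried several symbols named a member.

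RNA came from unstimulated L929 cells, fibroblasts derived from mouse connective tissue that the series title calls sensitive to necrosis, and from unstimulated NIH3T3 cells, mouse embryo fibroblasts that it calls sensitive to apoptosis. There were 2 arrays per line, of the Affymetrix type Mouse Genome 430 2.0, and the labels state no genetic change and no treatment for either line. One line stands for each way of dying, so a difference between the lines cannot be told apart from a difference between the ways of dying. Whether the replicates of a line were grown separately is not stated, and the p-values therefore rest on a spread that may be technical. Values are MAS5 signals without a physical unit, brought to the same trimmed mean on every array, and the number of arrays limits the precision. In such bulk RNA, fewer cells with a transcript and less of it per cell cannot be told apart.

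ESCRT-III subunits are soluble monomers that assemble on membrane into spirals, with CHMP4B as the main filament former and CHMP2A and CHMP3 as later subunits that remodel the filament and bring in VPS4. The hexameric ATPase VPS4 pulls subunits out of the filament and so recycles them. When plasma membrane is torn or perforated, calcium enters, ALG-2, the product of Pdcd6, binds it and recruits ALIX, the product of Pdcd6ip, and ALIX brings in CHMP4B. In necroptosis, in which the pseudokinase MLKL permeabilises the plasma membrane, this machinery is known to shed broken membrane as vesicles and to delay death. The arrays read its transcripts before any death signal, and the comparison asks which of them differ between the lines.

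L929 arrays had deposited trimmed means of 142 and 135, and NIH3T3 arrays 135 and 210, so that NIH3T3 replicate 2 was the brightest before scaling. After scaling, the correlation over tested probe sets, which are not independent, was 0.982 for the L929 pair, 0.981 for the NIH3T3 pair and 0.835 to 0.843 for arrays of different lines. Of the 10 fibroblast markers, 8 lay above the filter level of 17.3 on all 4 arrays, and their summed signal was 34752 to 36186 in L929 and 32942 to 44062 in NIH3T3. By the brightest probe set, limma called 1 of the 10 higher in L929 and 5 lower. The platelet-derived growth factor receptor gene Pdgfrb was higher, at 1056 and 989 in L929 against 534 and 487 in NIH3T3, and Fn1, Pdgfra, Thy1, Lum and Dcn were lower. The uncalled ones stood at 0.27 for Vim, 0.29 for Col1a2, 0.50 for S100a4 and -0.56 for Col1a1 on the log2 scale, and a second Col1a1 probe set was called higher, at 0.94. The stromal markers Dcn and Lum were above that level on 1 of 2 L929 arrays and on both NIH3T3 arrays, and Thy1 stood at 18.02 and 30.0 in L929 against 2193 and 2253 in NIH3T3. Summed signals were 110 to 123 in L929 and 127 to 138 in NIH3T3 for 4 epithelial markers, 139 to 160 in L929 and 178 to 213 in NIH3T3 for 4 macrophage and leukocyte markers, and 33.1 to 60.1 in L929 and 38.1 to 56.6 in NIH3T3 for 3 endothelial markers. By the brightest probe set, 2 of the 4 epithelial and 3 of the 4 macrophage and leukocyte markers exceeded the filter level on all 4 arrays. None of the endothelial markers did. Cd68 gave 32.6 and 30.6 in L929, against 66.6 and 64.1 in NIH3T3, and was called lower in L929 (limma adjusted p = 0.018). A fainter probe set each of Csf1r and Krt8 was also called lower. The leukocyte marker Ptprc and the endothelial marker Pecam1 were below the filter level on all 4 arrays. The part of these markers in the results below was not tested.

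Within the machinery the sensor gene, 1 late subunit gene and 1 ATPase gene were called higher in L929. The other ATPase gene, Vps4b, stood at -0.48 on the log2 scale and was not called. Pdcd6, Chmp2a and Vps4a were higher in L929, by 1.58-fold, 1.77-fold and 1.87-fold, and all 3 calls were lost without scaling. In the other direction, 2 of the 5 Pdcd6ip probe sets were lower in L929, by 1.86-fold and 2.11-fold. In total 3 of the 18 tested probe sets were called higher and 2 lower, and 13 were not called. A probe set was called where limma's adjusted p was under 0.05 and the fold above 1.5, with folds taken on the log2 scale after an offset of 8.01 was added. Over all probe sets tested, 31.6% were called, 14.9% higher and 16.7% lower, and the 27.8% of the members' probe sets lies near that background. The members' median log2 difference was -0.14, beside -0.0091 over all probe sets tested. With 1 probe set per gene, the brightest, 3 of 10 genes were higher and 0 lower in limma's test, where 34.6% of all genes were called, 17.1% higher and 17.5% lower. At an unadjusted p under 0.05 in limma's test, 4 of the member genes were higher and 2 lower. The share of all genes at that looser threshold was not computed, so these counts have no background beside them.

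**Figure D1:**
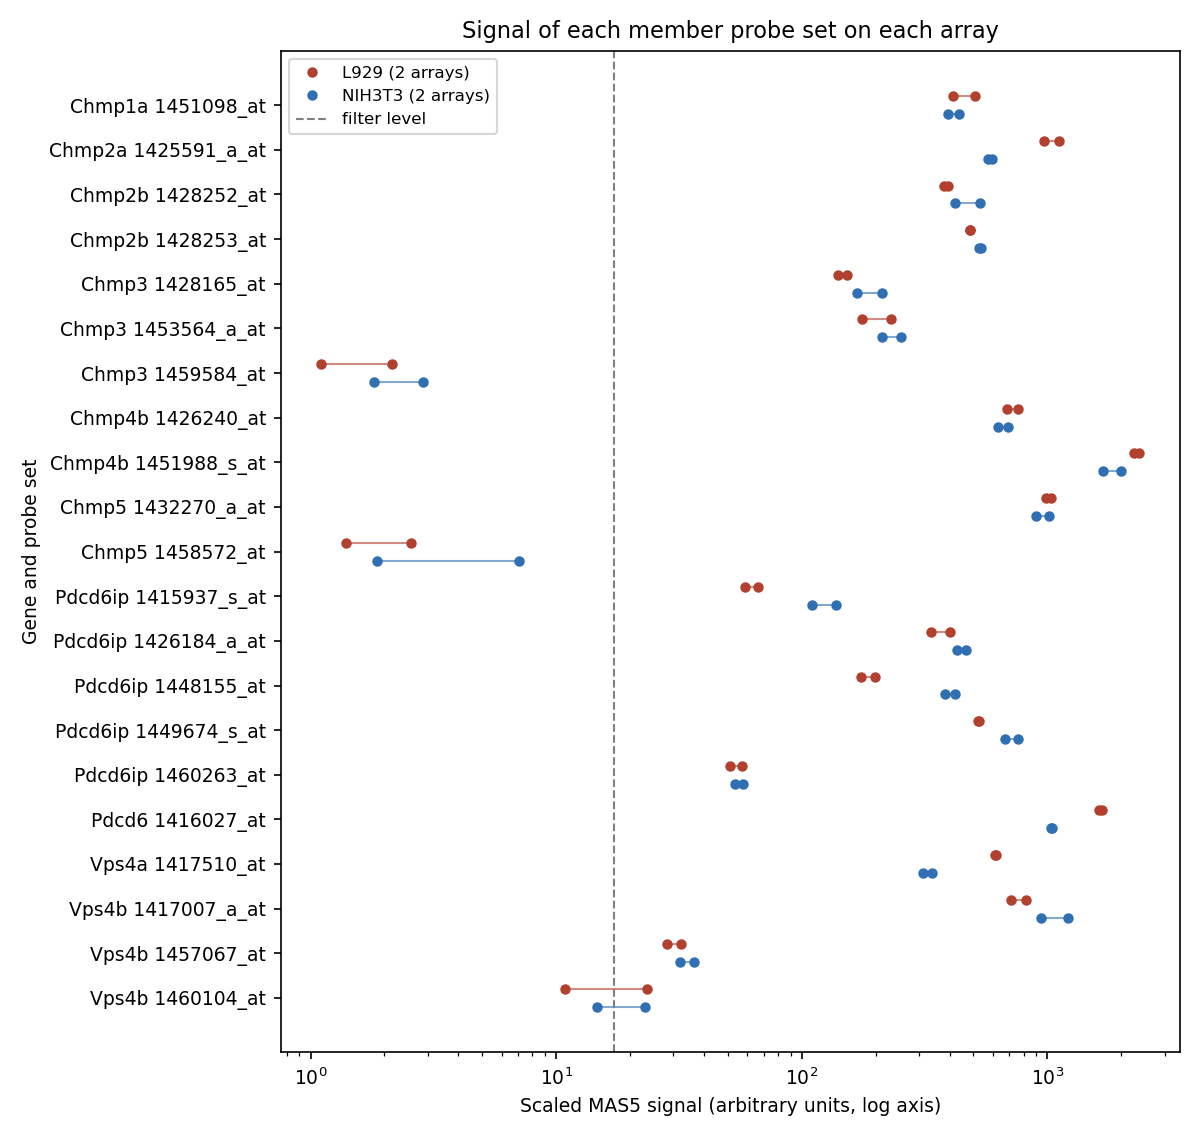
Scaled MAS5 signal in arbitrary units, on a log axis, for each of the 21 member probe sets, with L929 drawn above NIH3T3 in every row, 1 point per array and a line joining the 2 arrays of a line. Of the 18 tested probe sets, 4 have both L929 points to the right of both NIH3T3 points and 8 have them to the left. Over all tested probe sets, 69.9% do not overlap. To the right are Vps4a, Chmp2a, Pdcd6 and Chmp4b 1451988_s_at, and those to the left include Pdcd6ip 1448155_at. The 3 untested probe sets, of Chmp3, Chmp5 and Vps4b, reach down to or below the dashed filter level of 17.3.

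The sensor gene was higher in L929, and its partner adaptor was lower on some of its probe sets. Pdcd6, whose product ALG-2 is the calcium-binding protein that starts the recruitment, gave 1623 and 1668 in L929, against 1044 and 1034 in NIH3T3. Both L929 arrays lay above both NIH3T3 arrays, with a spread within each line far smaller than the gap after scaling. The log2 difference was 0.66 (95% interval 0.41 to 0.91, limma adjusted p = 0.0016), from the only probe set of the gene, 1416027_at.

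Pdcd6ip, which encodes the adaptor ALIX, had 5 probe sets, and all 5 estimates were negative, from -1.08 to -0.039 on the log2 scale. Probe set 1448155_at gave 198 and 174 in L929, against 383 and 420.2 in NIH3T3. The groups did not overlap, and its log2 difference was -1.08 (interval -1.36 to -0.79, limma adjusted p = 2.3e-04). Probe set 1415937_s_at gave 58.9 and 66.3 in L929, against 110 and 138 in NIH3T3. This dimmer probe set also kept the lines apart, with a log2 difference of -0.90 (interval -1.35 to -0.44, adjusted p = 0.0075). Its call was lost without NIH3T3 replicate 2, where limma gave a log2 difference of -0.75 and an adjusted p of 0.058.

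The other Pdcd6ip probe sets, 3 in number, were not called. The brightest, 1449674_s_at, gave 522 and 526 in L929, against 670.5 and 759.5 in NIH3T3. Here too the lines did not overlap, and the log2 difference of -0.44 (interval -0.69 to -0.19, limma adjusted p = 0.013) stayed under the fold threshold. Probe set 1426184_a_at gave 401 and 337 in L929, against 427 and 467 in NIH3T3, a log2 difference of -0.28 (interval -0.56 to 0.0072). Probe set 1460263_at gave 56.9 and 50.8 in L929, against 57.7 and 53.4 in NIH3T3, so the lines overlapped (log2 difference -0.039, interval -0.56 to 0.48). The interval of 1448155_at lies wholly below those of the 3 uncalled probe sets. Its interval overlaps that of 1415937_s_at, which the annotation derives from the same source record. The remaining pair that shares a record, 1449674_s_at and 1460263_at, had intervals that overlap. How far the probe sets of Pdcd6ip read the same transcripts was not tested.

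Among the filament subunits, Chmp2a was higher in L929 and the others were not called. Chmp4b, whose product forms the body of the filament and is the subunit that ALIX binds, was measured by a pair of probe sets. Probe set 1451988_s_at gave 2246 and 2357 in L929, against 2000.3 and 1678 in NIH3T3, and 1426240_at gave 684 and 760.4 in L929, against 632 and 691 in NIH3T3. The lines did not overlap for the first and overlapped for the second, and the log2 differences were 0.33 (interval 0.017 to 0.64, limma adjusted p = 0.090) and 0.12 (interval -0.13 to 0.38, adjusted p = 0.42). The second estimate turned negative, to -0.16, without scaling.

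Chmp2a, a late subunit that caps the CHMP4 filament and recruits VPS4, gave 1117 and 972 in L929, against 596 and 573 in NIH3T3. After scaling, the lowest L929 array lay well above the highest NIH3T3 array. The log2 difference was 0.83 (interval 0.57 to 1.08, limma adjusted p = 6.0e-04), from the only probe set of the gene, 1425591_a_at. Its paralogue Chmp2b gave 485 and 485 in L929, against 537 and 527 in NIH3T3, on its brighter probe set 1428253_at. The fainter one, 1428252_at, gave 395 and 379.9 in L929, against 422 and 533 in NIH3T3. Both probe sets had both L929 arrays below both NIH3T3 arrays, by amounts that limma did not call: -0.13 (interval -0.36 to 0.099) and -0.29 (interval -0.59 to 0.015) on the log2 scale.

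Chmp3, which encodes the partner of CHMP2A in the remodelling layer, was read by 3 probe sets. Probe set 1453564_a_at gave 230.5 and 177 in L929, against 254 and 212 in NIH3T3, and its arrays overlapped (log2 difference -0.19, interval -0.57 to 0.18). Probe set 1428165_at gave 152 and 140.1 in L929, against 213 and 168 in NIH3T3, and had both L929 arrays below (log2 difference -0.35, interval -0.72 to 0.0071). The third, 1459584_at, stayed between 1.11 and 2.15 in L929 and between 1.82 and 2.88 in NIH3T3 and was too dim to be tested.

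Chmp1a, a late subunit that acts near the end of filament turnover, gave 411 and 507 in L929, against 393 and 435 in NIH3T3. The arrays overlapped, and the log2 difference was 0.14 (interval -0.16 to 0.44, limma adjusted p = 0.44). Chmp5, which binds the VPS4 cofactor LIP5 and is regarded as a regulator of disassembly, gave 1030.2 and 989.7 in L929, against 901 and 1019.8 in NIH3T3, on 1432270_a_at. Its arrays overlapped as well (log2 difference 0.075, interval -0.18 to 0.33). A further Chmp5 probe set, 1458572_at, lay at 1.40 to 2.57 in L929 and 1.87 to 7.04 in NIH3T3, below the filter level throughout. The estimates for Chmp1a and Chmp5 turned negative, to -0.14 and -0.21, without scaling.

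Of the ATPase genes, Vps4a was higher in L929 and Vps4b was not called. Vps4a gave 617 and 613 in L929, against 311 and 338 in NIH3T3, with no overlap and little spread in either line after scaling. The log2 difference was 0.91 (interval 0.66 to 1.15, limma adjusted p = 2.5e-04), which was the largest excess in L929 among the members, from the only probe set of the gene, 1417510_at. Vps4b gave 816 and 712 in L929, against 1208 and 946 in NIH3T3, on its brightest probe set 1417007_a_at. Both L929 arrays lay below both NIH3T3 arrays, and the log2 difference of -0.48 (interval -0.81 to -0.16, limma adjusted p = 0.026) was a 1.40-fold difference, under the fold threshold. Without NIH3T3 replicate 2 it was called, at -0.66 with an adjusted p of 0.0060. A second tested Vps4b probe set, 1457067_at, was dim at 28.2 and 32.2 in L929, against 36.6 and 32.01 in NIH3T3, and its arrays overlapped (log2 difference -0.15, interval -0.76 to 0.47). The third, 1460104_at, was above the filter level on 1 of 2 arrays of each line and was not tested.

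**Figure D2:**
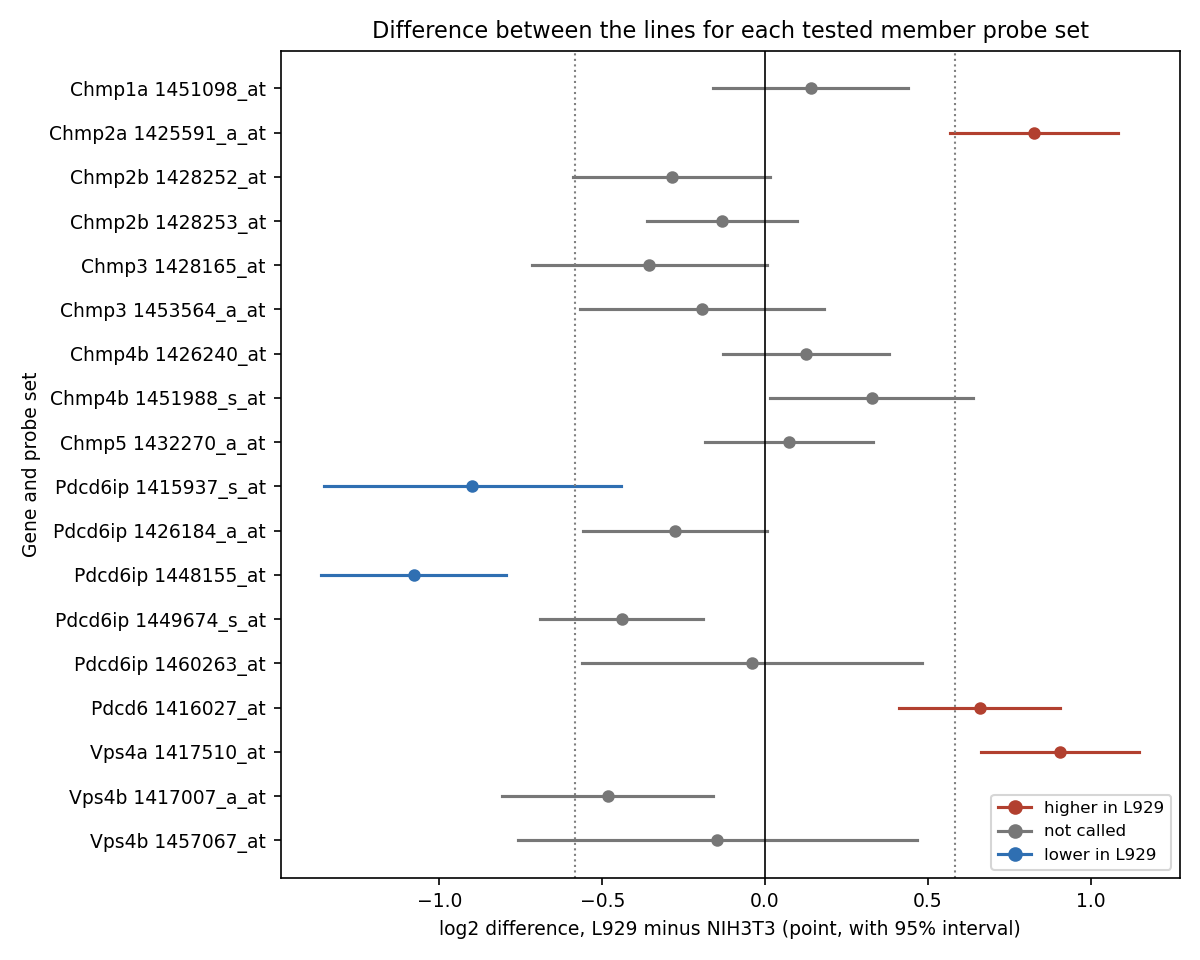
Log2 difference, L929 minus NIH3T3, with its 95% interval from limma for each of the 18 tested member probe sets. Dotted lines mark 1.5-fold in either direction, and the points of the 3 probe sets called higher, of Chmp2a, Pdcd6 and Vps4a, stand to the right of them and those of the 2 called lower, both of Pdcd6ip, to the left.

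Of the 13 uncalled member probe sets, 7 had an interval that lay wholly within 1.5-fold in either direction, so for these a difference beyond the threshold lies outside the interval. For the other uncalled ones, a difference that large was not resolved with 2 arrays a line. The arrays of the lines did not overlap for 12 of the 18 tested probe sets, 4 with L929 above and 8 with L929 below. Of all tested probe sets 69.9% did not overlap, 34.1% with L929 above and 35.8% with L929 below. Scaling bears on the positive differences. As deposited, without scaling, the median of all tested probe sets stood at -0.28, with NIH3T3 replicate 2 the brightest array, and the split of all calls was 1484 higher and 3722 lower, or 28.5% higher, against 4091 and 4582, or 47.2%, with scaling. Relative to that median, Vps4a stood at 0.90, Chmp2a at 0.82, Pdcd6 at 0.65 and Pdcd6ip 1448155_at at -1.08, but limma no longer called Vps4a, Chmp2a or Pdcd6 (adjusted p = 0.35, 0.37 and 0.50). Without scaling 0 member probe sets were higher in limma's test, and 0 were higher at an unadjusted p under 0.05. Vps4a as deposited still read 574 and 540.2 in L929, against 276 and 466 in NIH3T3. Pdcd6 read 1510 and 1469 in L929, against 925 and 1424, and Chmp2a 1039 and 856, against 528 and 788. For these genes the deposited gap between the nearest arrays of the lines was smaller than the spread between the NIH3T3 arrays. All 5 called probe sets kept the lines apart in the deposited signals, but they had been called on the same arrays. The share of all probe sets kept apart as deposited was not computed.

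A ratio of 2 probe sets within an array does not depend on how the array is scaled, apart from the offset. The log2 ratio of Vps4a to Vps4b signal was -0.40 and -0.21 on the L929 arrays, against -1.93 and -1.46 on the NIH3T3 arrays. It averaged -0.31 ± 0.13 in L929 and -1.70 ± 0.33 in NIH3T3 (SD, n = 2 each), a difference of 1.39. The log2 ratio of Chmp2a to Chmp2b signal was 1.19 and 0.99 on the L929 arrays, against 0.15 and 0.12 on the NIH3T3 arrays, a difference of 0.96. Both pairs therefore changed unequally between the lines, by more than the spread within either line. These differences follow from the single probe set differences given above and are no separate evidence. The share of other probe set pairs that keep the lines apart was not computed. Without scaling the differences were 1.39 and 0.96, and when single arrays were left out they ran from 1.16 to 1.62 and from 0.86 to 1.06. An exact permutation test over 2 against 2 arrays cannot give a p below 0.333, so none was run. A ratio of different probe sets says nothing about which transcript is the more abundant within a line.

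**Figure D3:**
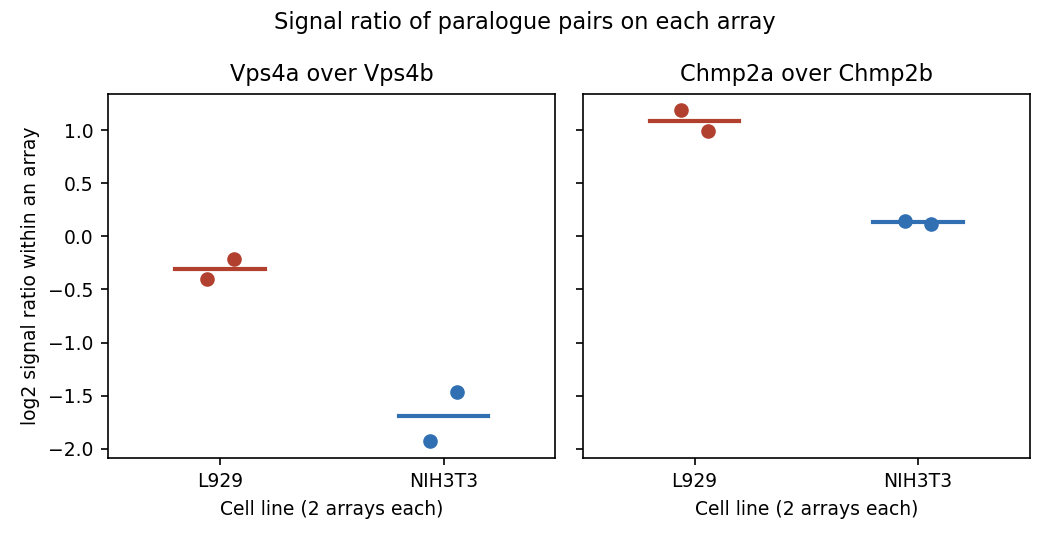
Log2 ratio of the brightest probe sets of each paralogue pair within an array, 1 point per array and a bar at the mean of the line, with L929 left of NIH3T3. The Vps4a over Vps4b ratio averaged -0.31 in L929 and -1.70 in NIH3T3, and the Chmp2a over Chmp2b ratio lay at 0.99 to 1.19 in L929 and 0.12 to 0.15 in NIH3T3.

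The sequences before the start sites are shown for the ATPase pair, whose ratio differed between the lines, and for the other members with a called probe set. The 250 bases upstream of the annotated start, from RefSeq with build GRCm38.p6, are those of Vps4a (chr8:107031019-107031268, plus strand) and Vps4b (chr1:106796726-106796975, minus strand), and of Chmp2a (chr7:13034778-13035027, minus strand), Pdcd6 (chr13:74317327-74317576, minus strand) and Pdcd6ip (chr9:113708260-113708509, minus strand). All are written in the direction of transcription, and capitals mark matches on either strand to GGGCGG, the GC box, to the CCAAT box, to TATAAA, the TATA box, to CCGGAAG, an ETS motif, or to CACGTG, an E-box, with overlapping matches allowed.
Vps4a: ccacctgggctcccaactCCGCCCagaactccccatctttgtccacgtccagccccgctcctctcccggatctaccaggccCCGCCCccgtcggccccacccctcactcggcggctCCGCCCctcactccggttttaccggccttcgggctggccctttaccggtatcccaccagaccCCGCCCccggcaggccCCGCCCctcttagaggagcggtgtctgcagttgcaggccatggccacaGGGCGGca
Vps4b: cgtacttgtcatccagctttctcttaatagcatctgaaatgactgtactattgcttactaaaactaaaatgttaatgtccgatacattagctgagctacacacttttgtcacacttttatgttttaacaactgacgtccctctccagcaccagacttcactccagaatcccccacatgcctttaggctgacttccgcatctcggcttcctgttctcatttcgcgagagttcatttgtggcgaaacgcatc
Chmp2a: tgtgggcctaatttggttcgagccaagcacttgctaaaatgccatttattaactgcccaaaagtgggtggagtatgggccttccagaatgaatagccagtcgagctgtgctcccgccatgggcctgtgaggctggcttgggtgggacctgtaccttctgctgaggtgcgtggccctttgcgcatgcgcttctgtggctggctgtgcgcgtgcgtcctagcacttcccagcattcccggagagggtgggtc
Pdcd6: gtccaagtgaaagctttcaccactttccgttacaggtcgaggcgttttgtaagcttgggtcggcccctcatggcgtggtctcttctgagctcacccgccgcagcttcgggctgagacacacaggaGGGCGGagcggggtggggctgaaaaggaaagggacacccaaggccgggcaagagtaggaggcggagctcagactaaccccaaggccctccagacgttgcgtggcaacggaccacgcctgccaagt
Pdcd6ip: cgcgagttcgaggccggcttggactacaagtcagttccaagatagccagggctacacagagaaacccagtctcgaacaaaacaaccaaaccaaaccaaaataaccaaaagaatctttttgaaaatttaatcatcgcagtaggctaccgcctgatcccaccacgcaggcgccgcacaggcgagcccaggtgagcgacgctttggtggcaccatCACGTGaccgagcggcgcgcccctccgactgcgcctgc

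The Vps4a window held 6 GC boxes and was 70.8% G and C, while the Vps4b window held 0 of the 5 motifs and was 43.2% G and C, the lowest of the 11 member windows. All 10 members had a window. Of their 11 windows, 5 had at least 1 GC box, each of a different gene, beside 32.7% of all 32851 windows in the table. The E-box was found in the Pdcd6ip window, alone among the members, and in 6.02% of all windows. Pdcd6 had 1 GC box, and Chmp2a had none of the motifs. The member windows ranged from 43.2% to 72.0% G and C, beside a median of 52.4% over all windows. These matches describe letters, and the arrays measured no binding. The 10 members lie on 9 chromosomes, with only Vps4a and Chmp1a sharing one, chromosome 8.

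The rest of the late ESCRT pathway, a list of 17 genes for further ESCRT-III subunits, VPS4 cofactors and ALIX or CHMP4 partners, held genes called lower in L929. By the brightest probe set, 4 of 17 were called lower and 0 higher in limma's test, or 23.5% called beside 34.6% of all genes. Over all genes, 17.5% were called lower. The count lower was 3 without scaling, with quantile normalization, with median scaling and with an offset of 32. Of all probe sets, 19.2%, 31.6%, 32.4% and 27.7% were called in those settings. The list had a median log2 difference of -0.14 beside 0.014 over all genes. At an unadjusted p under 0.05 in limma's test, 7 were lower and 1 was higher. The share of all genes at that looser threshold was not computed, so these counts cannot be read as a shift of the list. Chmp1b, the paralogue of Chmp1a and a binding partner of spastin, gave 148 and 139.7 in L929, against 343 and 370.3 in NIH3T3. It was 2.40-fold lower in L929 (limma adjusted p = 8.8e-05), and both of its probe sets were called. Ptpn23, which encodes HD-PTP, a relative of ALIX that also binds CHMP4B, gave 77.7 and 67.6 in L929, against 185 and 167 in NIH3T3. It was 2.28-fold lower in L929 (adjusted p = 7.7e-04).

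Cc2d1b, whose product binds CHMP4 subunits, gave 103 and 142 in L929, against 284 and 277 in NIH3T3, 2.23-fold lower (limma adjusted p = 7.8e-04), although its second tested probe set differed by only -0.43 on the log2 scale. Its paralogue Cc2d1a stood at 0.51 with an adjusted p of 0.032, a 1.42-fold difference under the threshold and of the opposite sign. Stambp, the ubiquitin protease AMSH that docks on ESCRT-III, gave 166 and 163 in L929, against 249.9 and 257 in NIH3T3, 1.51-fold lower (adjusted p = 0.0054), at the edge of the fold threshold. Pef1, the calcium-binding partner of ALG-2, stood at -0.50 (adjusted p = 0.0068), opposite in sign to Pdcd6, and was 1.41-fold lower. Spast, the microtubule-severing ATPase recruited by ESCRT-III, stood at -0.38 and Vta1, which encodes the VPS4 cofactor LIP5, at -0.33, with adjusted p-values of 0.031 and 0.041 and folds under the threshold. The second Vta1 probe set stood at 0.17.

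The other late genes were not called on any probe set. Log2 differences were -0.26 for the ubiquitin protease Usp8, -0.0077 for the subunit Chmp6, 0.16 for Chmp7, which acts at the nuclear envelope, and 0.087 for the regulator Ist1. They were 0.20 for Mitd1, which acts in abscission, -0.059 for the ALIX relative Brox, 0.12 for the midbody adaptor Cep55 and 0.28 for the ALIX partner syntenin, Sdcbp. Further probe sets reached 0.81 for Mitd1 and 0.58 for Cep55, and those of Ist1, Brox and Sdcbp had the opposite sign to the brightest one. Chmp4c, a paralogue of Chmp4b, was near the filter level, with 24.7 and 12.1 in L929 against 19.7 and 21.0 in NIH3T3, and its sign cannot be read from these values.

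The early complexes ESCRT-0, I and II, which sort ubiquitinated cargo before ESCRT-III acts, showed 2 genes lower and 1 higher among 14 tested of 15, with Vps25 too dim to test. That is 21.4% called, beside 34.6% of all genes, 17.1% higher and 17.5% lower. By the brightest probe set, the median log2 difference was -0.29, beside 0.014 over all genes, and 12 of 14 estimates were negative. The share of negative estimates over all genes was not computed. Snf8, an ESCRT-II subunit, gave 1039 and 1279.6 in L929, against 598 and 695 in NIH3T3, 1.78-fold higher (limma adjusted p = 0.0016), a call that was lost without scaling. The ESCRT-I subunits Vps37b and Vps37d were 1.96-fold and 1.89-fold lower in L929 (adjusted p = 0.0016 and 0.0079). The count lower moved when single arrays were left out, which leaves 1 array in a line. Vps36, the partner of Snf8 in ESCRT-II, had a brightest probe set at -0.56 while 2 of its 3 probe sets were called higher, up to 1.27, so its direction is not settled. Fainter probe sets of other early genes were called as well, 1453338_at of Stam2 at 1.75 and 1423185_a_at of Ubap1 at 0.63, both higher, and 1416862_at of Stam at -1.10, lower. The brightest Stam2 probe set stood at -0.14. Vps36, Stam, Stam2 and Ubap1 are named after their values were seen.

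Of 29 genes of other plasma membrane repair routes, among them annexins, ferlins and calpains, 27 had a probe set of their own and 25 were tested, with 1 called higher and 5 lower and a median log2 difference of -0.16. Ehd2, a membrane-shaping ATPase at caveolae, gave 903 and 874 in L929, against 292 and 281 in NIH3T3, 3.05-fold higher (limma adjusted p = 8.0e-06), and 4 of its 5 probe sets were called higher. Stx4a, a plasma membrane SNARE, was 1.99-fold lower and dysferlin, Dysf, a calcium-dependent membrane fusion protein, 1.97-fold lower in L929 (adjusted p = 0.0049 and 0.031). Anxa6, an annexin that gathers at wounds, was 1.75-fold lower (adjusted p = 0.0013), with its probe sets ranging from -0.80 to 0.34. The remaining calls were Vamp7 and Myof, both lower. S100a10, the annexin A2 partner, had 2 of its 3 probe sets called higher, 1439348_at by 4.81-fold and 1416762_at by 1.54-fold, while its brightest stood at 0.56 and was not called. For Cavin1, a caveolar coat protein, a fainter probe set was called lower, at -1.14, and another stood at 0.35. Vamp7, Myof, S100a10 and Cavin1 are named after their values were seen. Both counts of this list moved when single arrays were left out, which leaves 1 array in a line. The list as a whole had 24.0% of its tested genes called, beside 34.6% of all genes.

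**Figure D4:**
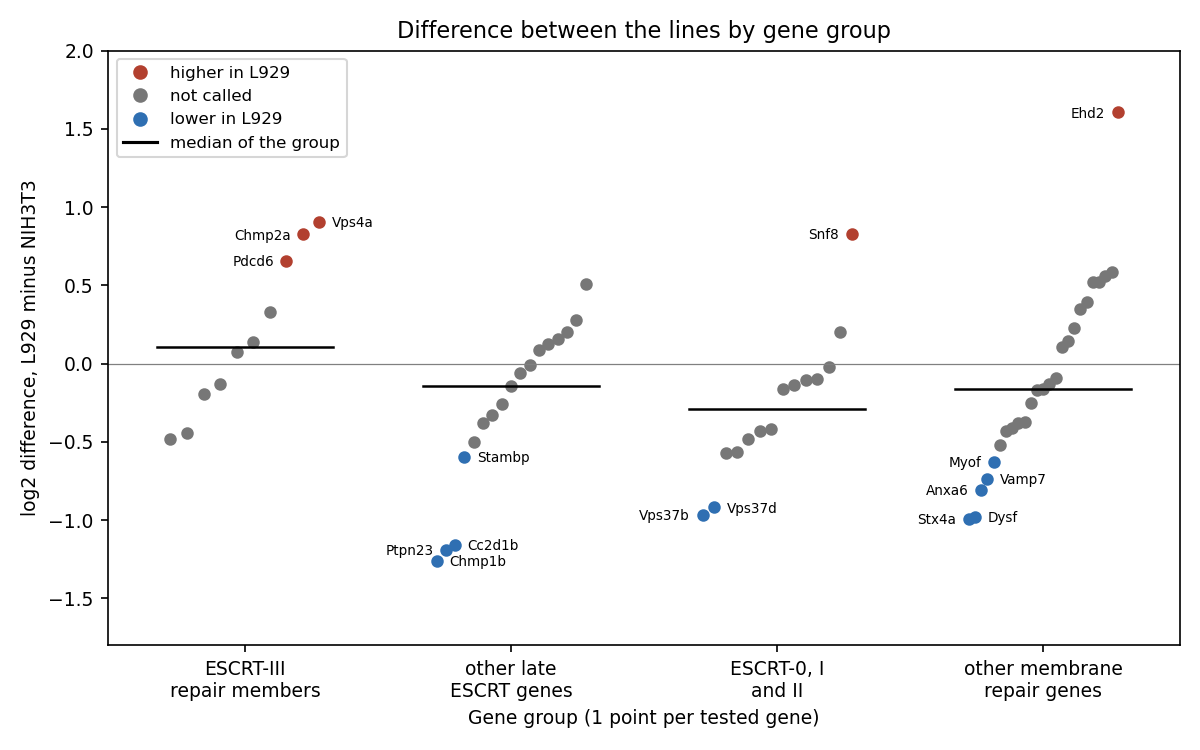
Log2 difference, L929 minus NIH3T3, of every tested gene by its brightest probe set, in 4 groups: the 10 members, 17 other late ESCRT genes, 14 ESCRT-0, I and II genes and 25 other membrane repair genes, with called genes coloured and named and a bar at the group's median. The called member genes, 3 of 10, lie at 0.66 to 0.91, and those of the other late genes, 4 of 17, at -1.26 to -0.60. Over all genes, 17.1% were called higher and 17.5% lower. Pdcd6ip is drawn by its brightest probe set, uncalled at -0.44, although 2 of its other probe sets were called lower. The medians run from -0.29 to 0.11.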

How the data were processed

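Total RNA of 2 L929 and 2 NIH3T3 samples was measured on Affymetrix Mouse Genome 430 2.0 arrays. The deposited values are intensities, computed as MAS5 signals per the submitters' processing notes. No MAS5 version, scaling target or genome build is given in the sources used here. Samples were grouped by title. The 64 control probe sets were left out, and 34945 probe sets had a unique symbol in the platform annotation, 932 several and 9160 none.

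Signals were brought to the same trimmed mean on all arrays, with 2% left out at each end, and log2 was computed after adding an offset of 8.01, the 25th percentile. Testing required that both arrays of at least 1 line exceed 17.3, the 40th percentile, which is not a detection limit. The fit used lmFit and eBayes with a mean-variance trend (limma 3.58.1, R 4.3.3), Benjamini-Hochberg adjustment over 27438 probe sets, and the design text's thresholds of 0.05 and 1.5-fold. Gene lists were counted from each gene's brightest tested probe set. On simulated data for this comparison, over 27438 probe sets, 44% of 1.5-fold changes, which lie at the threshold itself, 98% of 2-fold and 100% of 4-fold changes were recovered, with 7 false calls; the changed probe sets were bright ones, and only 200 in all. The members and lists were chosen with earlier results of these data known. Named were all members, all late ESCRT genes, up to 3 called genes per direction of the other lists, and markers; further genes of those lists were named after their values were seen, as stated there. Scaling, offset, filter, moderation, block, adjustment, threshold and left-out arrays were varied. Promoter windows came from RefSeq (GRCm38.p6); the files name no build, so array coordinates are not printed.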

Additional observations from a re-analysis of the deposited data

How the results depend on the processing

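Of 279 recomputed differences of member probe sets, 263 kept their direction and their side of the threshold, 4 lost their call, 3 gained one and 9 changed sign. Without scaling, 0 member probe sets and 0 member genes were higher, 0 early ESCRT genes were higher, 3 other repair genes were lower, and 19.2% of all probe sets were called; Chmp1a turned to -0.14, Chmp4b 1426240_at to -0.16 and Chmp5 to -0.21, none of them called in any setting. Pdcd6ip 1460263_at, near 0 in the main setting, turned to 0.059 with quantile normalization and 0.016 with median scaling. Leaving out single arrays gave -0.11 to 0.032 for it, -0.0086 to 0.29 for Chmp1a and -0.014 to 0.16 for Chmp5. With median scaling 3 other repair genes were higher, and with no mean-variance trend 3 were lower. Of all probe sets, 32.4% and 30.4% were called in those settings. With no filter 17.03% of all probe sets were called, out of 45037 tested. With no fold threshold, 4 member probe sets and 2 member genes were lower, 1 late ESCRT gene was higher and 7 were lower, 7 early ESCRT genes were lower, and 4 other repair genes were higher and 8 lower. In that setting 39.3% of all tested probe sets were called, 5150 higher and 5620 lower. With single arrays left out there were 0 to 1 member genes lower, 0 to 1 late ESCRT genes higher, 2 to 4 early ESCRT genes lower, and 1 to 5 other repair genes higher and 3 to 5 lower. The cause of these changes was not tested.

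The replicate numbers are not stated to pair the samples, and deviations of same-numbered arrays correlated at 0.014 across tested probe sets. With the replicate block 3 member probe sets were higher and 2 lower, and 4153 and 4681 of all probe sets. Of the 21 member probe sets, 3 were too dim to be tested.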
